A study of Homo sapiens with 6 samples.

Results

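Cholesterol is made from squalene by a chain of enzymes of the endoplasmic reticulum, and 9 genes of that chain were followed here: FDFT1, SQLE, LSS, CYP51A1, MSMO1, NSDHL, EBP, SC5D and DHCR7. They were chosen by gene symbol as enzymes of this pathway, with earlier results of these data known, and each symbol had 1 row among the 58735 genes of the deposited tables. RNA sequencing gave 6 libraries of MUM2B, a human line that the labels give as melanoma, of which 3 stably carried an empty vector and 3 stably overexpressed LACTB, a serine beta-lactamase-like protein of mitochondria. Both groups grew in RPMI medium with serum and were otherwise untreated. The labels give neither the promoter of the vector nor whether each stable line was a clone or a pool, and they do not say whether the replicates were separate cultures, so a p-value here reflects the spread among the 6 libraries alone, which may be technical. The comparison asks how a raised level of LACTB goes along with RNA levels.

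As background, farnesyl pyrophosphate, the end of the mevalonate arm, is the branch point: FDFT1 commits it to sterols by joining a pair of molecules into squalene. SQLE adds oxygen to squalene, LSS folds it into the first ring sterol, lanosterol, and the later enzymes strip methyl groups, shift and add ring double bonds and reduce them. Genes of the whole chain are known targets of SREBP2, the sterol-sensing transcription factor encoded by SREBF2, which the INSIG proteins hold back in the endoplasmic reticulum when sterols are plentiful. RNA levels alone do not give the amount of enzyme or sterol, and in bulk samples fewer cells of a type and less RNA per cell cannot be told apart.

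The libraries held 16978799 to 18395631 reads in genes, recovered from the FPKM values (fragments per length of exon, corrected for library size). LACTB itself stood at 3.81, 3.39 and 4.71 FPKM with the empty vector and at 173.9, 169.3 and 161.5 FPKM in the overexpressing cells, so all 6 libraries matched their labels. Mitochondrially encoded genes took 3.61% of reads in empty vector replicate 3, against 4.65% to 5.62% in the other 5 libraries. Of 11 melanocytic markers, none reached 1 FPKM in any library, and S100B and OCA2 were listed at 0 in all of them. The summed level of these markers was 1.32 to 1.59 FPKM with the empty vector and 1.79 to 2.33 FPKM with LACTB. Markers of other cell types were as low: the highest single values were 0.0531 FPKM over 4 leukocyte markers, 0.433 over 4 endothelial markers, 0.209 over 5 fibroblast markers and 0.791 over 5 markers of hepatocytes or steroid-making cells. CD3E and DCN were listed at 0 in all libraries. The endothelial markers summed to 0.499 to 0.559 FPKM with the empty vector and to 0.256 to 0.412 with LACTB, the hepatocyte or steroid-making markers to 0.378 to 0.533 and 0.792 to 0.846, the leukocyte markers to 0.0180 to 0.0582 and 0.0252 to 0.0860, and the fibroblast markers to 0.379 to 0.403 and 0.290 to 0.381; their part in the results was not tested.

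The stretches before RefSeq starts of 4 members are shown because sterol-responsive factors and their partner NF-Y are known to bind such stretches. The data hold no measure of binding. Only stretches with a CCAAT box and enough bases before an annotated exon are shown, so they were picked for the motif they hold. The window of the other DHCR7 start had no CCAAT box and is not shown. The DHCR7 stretch lies inside the annotated gene (71428193 to 71452868, minus strand), not upstream of it. All stretches are the part of the 250 bases before a RefSeq start (GRCh38.p14) up to the first GENCODE 29 exon met in those bases. They are written 5′ to 3′ on the gene's strand, with CCAAT boxes (CCAAT, or ATTGG when on the other strand) and the core of a sterol regulatory element (TCACNCCA) in capitals.
MSMO1, chr4:165327419-165327622, plus strand: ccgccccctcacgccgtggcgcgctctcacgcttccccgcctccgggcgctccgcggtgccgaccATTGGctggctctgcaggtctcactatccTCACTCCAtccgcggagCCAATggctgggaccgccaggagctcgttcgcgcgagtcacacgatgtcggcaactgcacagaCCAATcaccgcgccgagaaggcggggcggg
NSDHL, chrX:152830813-152830966, plus strand: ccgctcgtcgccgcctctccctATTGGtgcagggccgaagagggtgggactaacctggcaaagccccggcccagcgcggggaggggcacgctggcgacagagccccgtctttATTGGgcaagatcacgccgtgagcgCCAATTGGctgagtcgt
LSS, chr21:46228825-46229024, minus strand: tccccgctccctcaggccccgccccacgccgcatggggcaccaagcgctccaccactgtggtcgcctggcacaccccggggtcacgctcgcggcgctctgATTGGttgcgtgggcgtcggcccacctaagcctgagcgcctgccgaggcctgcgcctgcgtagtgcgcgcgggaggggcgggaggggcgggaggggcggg
DHCR7, chr11:71448436-71448643, minus strand: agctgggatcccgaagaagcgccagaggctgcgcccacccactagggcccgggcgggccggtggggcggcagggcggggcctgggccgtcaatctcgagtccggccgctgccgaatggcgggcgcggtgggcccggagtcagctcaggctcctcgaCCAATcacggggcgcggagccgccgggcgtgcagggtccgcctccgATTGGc

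Over the full 250 bases, searched on both strands, 7 of the 9 member windows had a CCAAT box, and 32.01% of 35116 RefSeq starts of all genes had one. By gene, 6 of the 7 members in the RefSeq table had one before at least 1 of their starts. NSDHL had 5 matches, 2 of which overlap in the palindrome CCAATTGG, MSMO1 had 4 and EBP had 3. DHCR7 had 2 before 1 of its 2 starts, and LSS had 1. SC5D had 1, in the bases that the windows of its 2 starts share. Windows with at least 3 matches made up 2.93% of all starts. CYP51A1 had none. The TCACNCCA core was found in MSMO1 alone among these 7 members, and in 3.20% of all starts. An E-box (CACGTG) lay before SC5D, in the bases that its 2 starts share, and in 6.34% of all starts. The GC box (GGGCGG) was found in 7 of the 9 member windows, from 6 of the 7 members, and in 42.64% of all starts. These letters are descriptions of the windows and the lack of a match says nothing about a factor.

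**Figure D1:**
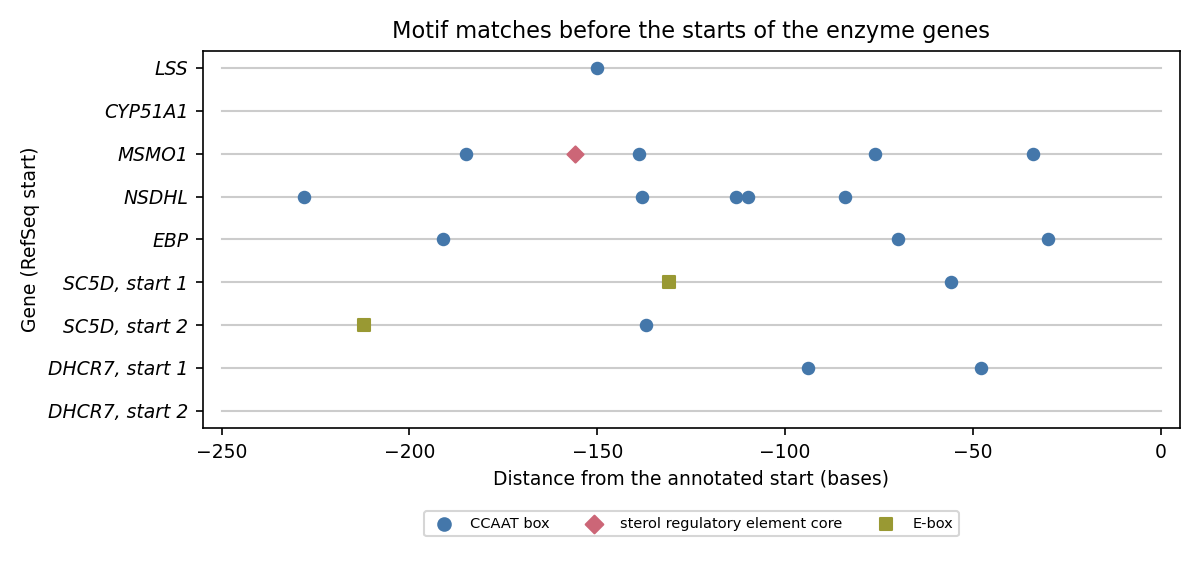
Matches of the CCAAT box, the sterol regulatory element core and the E-box in the 250 bases before each RefSeq start of 7 enzyme genes, plotted by the distance of the match from the start in bases; SC5D and DHCR7 have 2 starts each, numbered by genome position. CCAAT matches lie before the starts of all the genes drawn except CYP51A1 and the second DHCR7 start. The EBP window and the first SC5D window lie wholly in GENCODE 29 exons, and the second SC5D window does so for 215 bases.

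All 8 members that could be tested were lower in the cells overexpressing LACTB. The largest fall was that of DHCR7, which was 3.26-fold lower, and the smallest that of EBP, 1.55-fold lower, as ratios of mean FPKM. The ninth, CYP51A1, lay under the minimum of 1 FPKM for the mean over the 6 libraries and was not tested with the others. The test was limma on log2(FPKM + 1) over 11875 genes with Benjamini-Hochberg adjustment, at an adjusted p under 0.05; fold changes on this scale (log2 fold changes) are compressed where FPKM is low. Of all tested genes, 17.2% were called lower and 14.8% higher. The median log2 fold change of the 8 members was -1.11, and that of all tested genes was -0.010. A log2 fold change of -1 or lower was seen in 5 of the 8 members and in 0.438% of all tested genes, 52 in number. Summed over the 9 genes, the level was 200.4 ± 1.45 FPKM in the empty vector group against 91.9 ± 2.43 FPKM in the LACTB group (SD, n = 3 each).

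**Figure D2:**
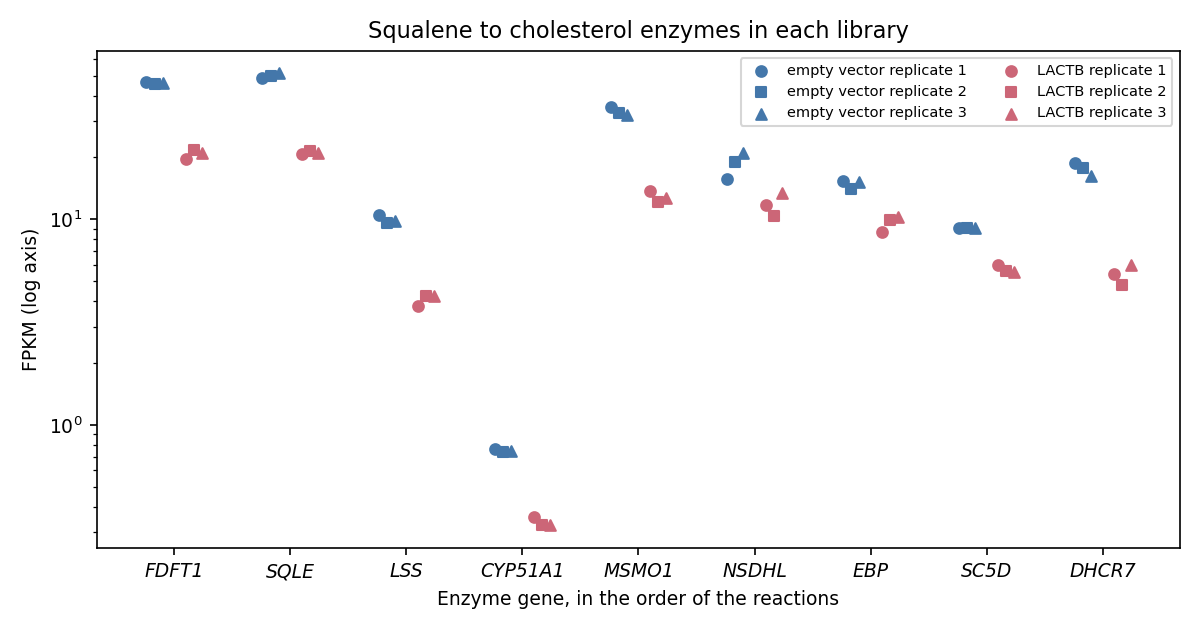
FPKM of the 9 enzyme genes (log axis) in the order of the reactions, 1 symbol per library. For every gene the 3 LACTB libraries lie below the 3 empty vector libraries, as they do for 25.1% of all 11875 tested genes. The groups are most widely apart for DHCR7 (16.2 to 18.9 against 4.79 to 6.001 FPKM). The narrowest gap, relative to its spread, is that of NSDHL (15.6 to 20.9 against 10.4 to 13.5 FPKM).

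FDFT1 (ENSG00000079459; GRCh38 chromosome 8, 11795573 to 11839309), squalene synthase, is the first enzyme that serves sterols alone. Its level was 46.7, 45.8 and 46.0 FPKM in empty vector replicates 1 to 3 and 19.7, 21.9 and 21.1 FPKM in LACTB replicates 1 to 3. The groups did not overlap, which was also so, in the direction of lower LACTB values, for 25.1% of all tested genes. By limma, FDFT1 changed by -1.11 on the log2 scale, with SE 0.047 and an adjusted p of 1.17e-05. SQLE (ENSG00000104549; chromosome 8, 124998497 to 125022283), squalene epoxidase, which uses oxygen and is known as a rate-limiting step of the sterol route, was the most abundant member. It stood at 48.9, 49.8 and 51.3 FPKM with the empty vector and at 20.9, 21.5 and 21.1 FPKM with LACTB, again without overlap. SQLE had a log2 fold change of -1.20 with an SE of 0.037, and the smallest adjusted p of the members (4.08e-06 by limma). LSS (ENSG00000160285; chromosome 21, 46188141 to 46228824), lanosterol synthase, had 10.5, 9.59 and 9.78 FPKM with the empty vector and 3.7998, 4.25 and 4.24 FPKM with LACTB. It was 2.43-fold lower and its groups lay apart (log2 fold change -1.11, SE 0.058; limma, adjusted p = 3.13e-05). The first 3 reactions, from farnesyl pyrophosphate to lanosterol, thus all had less than 50% of the empty vector RNA level, at 45.2% for FDFT1, 42.3% for SQLE and 41.1% for LSS.

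CYP51A1 (ENSG00000001630; chromosome 7, 92112151 to 92134803), the cytochrome P450 that removes the C14 methyl group of lanosterol, was listed far below its neighbours in the pathway. Its values were 0.761, 0.738 and 0.743 FPKM with the empty vector and 0.354, 0.324 and 0.326 FPKM with LACTB, from 48, 48, 48, 23, 20 and 21 reads. In GENCODE 29, 83.2% of its 3584 exon bases also lie in exons of other genes; 2844 of them belong to AC000120.2, a protein-coding gene on the same strand that was listed at 0 in all 6 libraries. AC000120.3, also on the same strand and at 0 in all libraries, shares 99 bases, and the antisense gene CYP51A1-AS1, at most 0.0560 FPKM, shares 138. Whether reads in the shared bases went uncounted was not tested, so the deposited level has an uncertain place in any order of levels. The 3 processed pseudogenes CYP51A1P1 to CYP51A1P3 reached at most 0.232 FPKM in any library. The ratio of the empty vector to the LACTB reads, scaled to library size, was 2.23, and its 95% interval for counting error alone ran from 1.65 to 3.04 (exact, Clopper-Pearson). In the same limma test without a minimum level, CYP51A1 passed the threshold (log2 fold change -0.39, SE 0.065; adjusted p = 0.0216; 4.58% of the 30629 genes then tested were called lower). All CYP51A1 reads were also divided by the 602 exon bases that no other gene shares, a choice made after seeing the data. This gave 4.45 ± 0.073 FPKM in the empty vector libraries against 1.99 ± 0.10 FPKM in the LACTB libraries (SD, n = 3 each). Limma then gave -0.87 on the log2 scale (SE 0.054, adjusted p = 7.21e-05). Where in the gene the reads lie was not tested. Every library was multiplied by the same factor of 5.95, so the larger estimate reflects a smaller weight of the pseudocount, not new reads.

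MSMO1 (ENSG00000052802; chromosome 4, 165327623 to 165343160) encodes the oxidase that starts removal of the C4 methyl groups. It was at 35.01, 32.8 and 32.3 FPKM with the empty vector and at 13.7, 12.1 and 12.7 FPKM with LACTB. The 2 groups were far apart, with a ratio of 2.60 between their means and a limma estimate of -1.31 on the log2 scale (SE 0.056, adjusted p = 1.17e-05). NSDHL (ENSG00000147383; chromosome X, 152830967 to 152869729), the dehydrogenase of the next step, varied most among replicates. Its values were 15.6, 19.1 and 20.9 FPKM with the empty vector and 11.8, 10.4 and 13.5 FPKM with LACTB. Empty vector replicate 1 was the lowest of its group and LACTB replicate 3 the highest of its own, and the groups still did not overlap. For NSDHL limma gave a log2 fold change of -0.60 with an SE of 0.12 and an adjusted p of 0.00983, the highest of the tested members.

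EBP (ENSG00000147155; chromosome X, 48521158 to 48528716), the isomerase that moves the ring double bond and also binds emopamil and tamoxifen, had 15.4, 14.1 and 15.2 FPKM with the empty vector and 8.71, 9.92 and 10.2 FPKM with LACTB. Its groups did not overlap (log2 fold change -0.58, SE 0.066; limma, adjusted p = 0.000918). SC5D (ENSG00000109929; chromosome 11, 121292453 to 121308694), the C5 desaturase, had nearly equal values in the empty vector libraries, 9.09, 9.08 and 9.08 FPKM, and 5.98, 5.60 and 5.53 FPKM with LACTB. It was 1.59-fold lower (log2 fold change -0.59, SE 0.045; limma, adjusted p = 0.000162). NSDHL, EBP and SC5D thus kept 64.0%, 64.5% and 62.8% of their empty vector level.

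DHCR7 (ENSG00000172893; chromosome 11, 71428193 to 71452868), which reduces 7-dehydrocholesterol to cholesterol and whose loss causes Smith-Lemli-Opitz syndrome, fell most. Its level was 18.9, 17.8 and 16.2 FPKM with the empty vector and 5.42, 4.79 and 6.001 FPKM with LACTB. All LACTB values were below 50% of the lowest empty vector value. With limma its estimate was -1.54 on the log2 scale (SE 0.084, adjusted p = 3.76e-05), rank 12 from the lowest among the 11875 tested genes. The antisense gene AP002387.1 lies within DHCR7 on the other strand and shares no exon base with it. AP002387.1 fell as well, by 1.004 on the log2 scale (limma, adjusted p = 0.00329), from 3.37 ± 0.322 to 1.21 ± 0.478 FPKM (SD, n = 3 each). This rests on 123 and 44 reads summed over each group. AP002387.1 (71448674 to 71452157) lies mostly before both RefSeq starts of DHCR7, but within the annotated gene. Without a record of strand in counting, its reads and those of unspliced DHCR7 RNA begun farther upstream cannot be told apart.

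**Figure D3:**
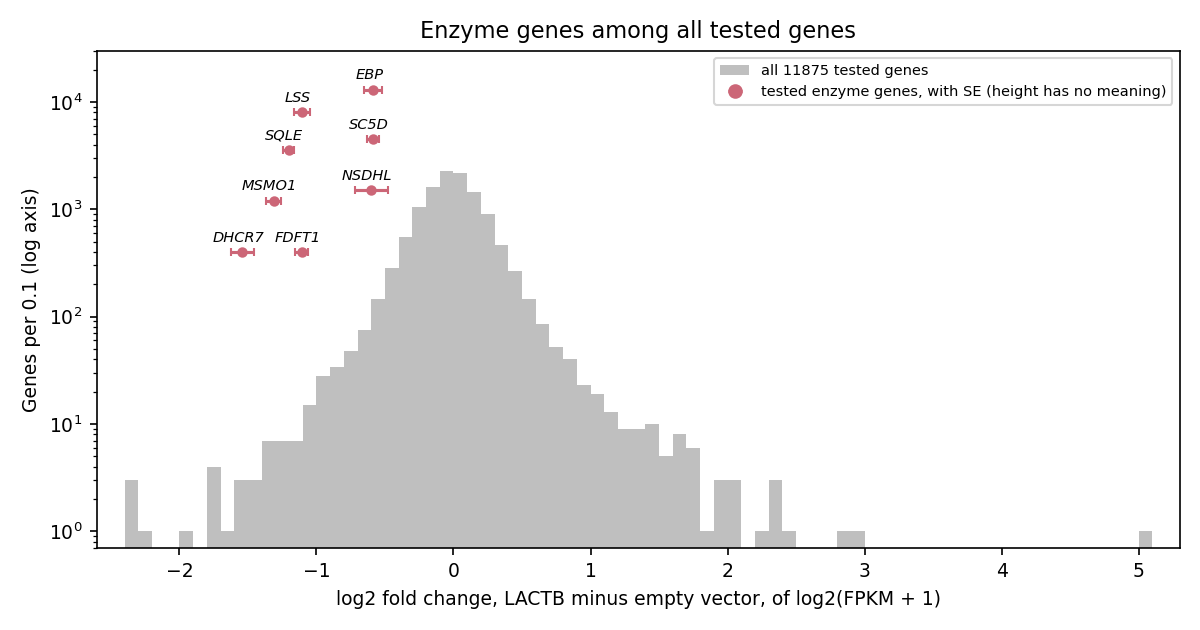
Number of tested genes per 0.1 of log2 fold change (grey bars, log axis) with the 8 tested enzyme genes as points and their SE; the height of a point carries no value. DHCR7, MSMO1, SQLE, FDFT1 and LSS lie at -1.11 or lower and NSDHL, SC5D and EBP between -0.60 and -0.58.

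The members therefore did not all fall by the same factor, and the order of their levels differed between the groups. With the empty vector, FPKM, which is scaled to exon length, placed SQLE first, followed by FDFT1, MSMO1, NSDHL, DHCR7, EBP, LSS, SC5D and CYP51A1; only NSDHL and DHCR7 overlapped among neighbours in this order. With LACTB the order was SQLE, FDFT1, MSMO1, NSDHL, EBP, SC5D, DHCR7, LSS and CYP51A1, and SQLE overlapped with FDFT1, MSMO1 with NSDHL and SC5D with DHCR7. DHCR7 lay above EBP in every empty vector library and below it in every LACTB library, and LSS and SC5D changed places in the same way.

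Within each library, the log2 FPKM of each gene was also set against the mean of the other 8, a measure that library scaling does not touch. DHCR7 stood 0.34 ± 0.13 above the others with the empty vector and 0.35 ± 0.14 below them with LACTB, a difference of -0.69 (log2, SD, n = 3 each). MSMO1 shifted by -0.32, LSS by -0.21 and SQLE by -0.16. EBP, NSDHL and SC5D stood higher relative to the other genes with LACTB, by 0.52, 0.51 and 0.48. The groups did not overlap for these 7 genes, and each had a two-sided exact permutation p of 0.1, the smallest that 3 against 3 libraries can give, or 0.129 after Benjamini-Hochberg adjustment over the 9 genes. With 1 library left out all 7 kept their direction. For LSS, MSMO1, SQLE and NSDHL the exact permutation p then rose to 0.2 in at least 1 such setting. For FDFT1 (shift -0.056) and CYP51A1 (shift -0.071) the groups overlapped (exact permutation p = 0.4 each, 0.4 adjusted). The FDFT1 value moved with single libraries and with the pseudocount: it was -0.013 without LACTB replicate 1 (exact permutation p = 0.8), -0.11 without LACTB replicate 2 (exact permutation p = 0.1, groups apart) and -0.19 with a pseudocount of 1 (exact permutation p = 0.1). The CYP51A1 value was -0.12 without LACTB replicate 1 (exact permutation p = 0.1, groups apart), -0.024 without LACTB replicate 3 (exact permutation p = 0.8) and 0.62, the opposite direction, with a pseudocount of 1 (exact permutation p = 0.1). No shift passed a threshold of 0.05, which this design cannot reach, and because each gene is set against the others, the 9 shifts are not independent.

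**Figure D4:**
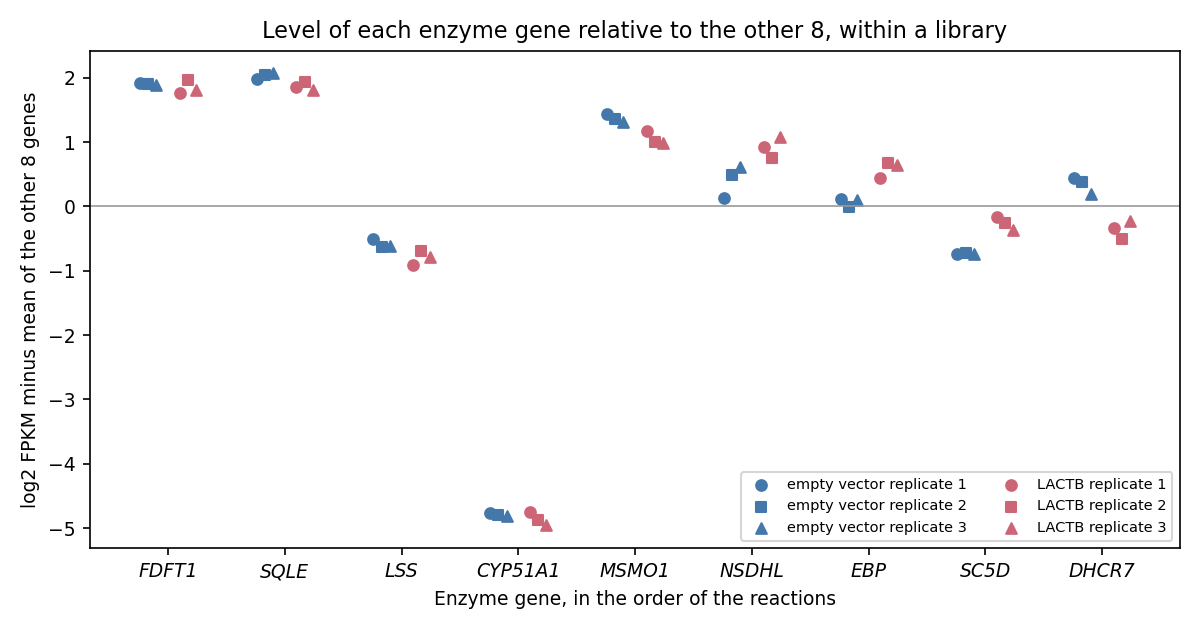
log2 FPKM of each enzyme gene minus the mean log2 FPKM of the other 8 in the same library, 1 symbol per library, in the order of the reactions. The LACTB libraries lie lower than the empty vector libraries for DHCR7 (mean -0.35 against 0.34) and higher for NSDHL, EBP and SC5D.

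A companion list held 6 further genes that act in the same route or are related to its enzymes; FAXDC2 lay under the minimum level, and of the 5 tested 3 fell and none rose (17.2% and 14.8% of all tested genes), with a median log2 fold change of -0.30. None of the 5 was higher at an unadjusted p under 0.05 in limma or at an adjusted p under 0.05 in voom on recovered reads. HSD17B7, the ketosteroid reductase that completes C4 demethylation after NSDHL, fell from 3.43 ± 0.306 to 1.32 ± 0.0462 FPKM; its pseudogenes HSD17B7P1 and HSD17B7P2 were listed at no more than 0.0366 FPKM. The C14 reductase step after CYP51A1 can be carried out by LBR, which is also the lamin B receptor of the nuclear envelope, or by TM7SF2. LBR fell from 25.3 ± 0.367 to 19.6 ± 0.917 FPKM, 1.29-fold, and TM7SF2 stood at 1.07 ± 0.404 and 1.01 ± 0.169 FPKM (limma, adjusted p = 0.903). ERG28, a scaffold of the C4 demethylation enzymes, fell 1.26-fold to 10.5 ± 0.386 FPKM. EBPL, a relative of EBP, stood at 20.1 ± 3.11 and 18.3 ± 0.431 FPKM with overlapping groups (limma, adjusted p = 0.42).

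Proteins that feed electrons to the oxygen-using steps (SQLE, CYP51A1, MSMO1 and SC5D) or bind these enzymes formed a list of 11 genes. Of the 10 tested, 3 fell and none rose, against 17.2% lower and 14.8% higher among all tested genes, and the median log2 fold change was -0.010. At an unadjusted p under 0.05 in limma 0 were higher, and 0 were called higher by voom. CYB5B, the cytochrome b5 of the outer mitochondrial membrane, fell 1.21-fold to 25.5 ± 0.351 FPKM, the heme-binding PGRMC2 fell 1.23-fold to 11.6 ± 0.356 FPKM (a call lost as TPM, with a limma adjusted p of 0.0774), and SEC14L2, known as supernatant protein factor for its effect on squalene epoxidase, fell 1.29-fold to 2.36 ± 0.0763 FPKM. Of the CYB5B exon bases, 35.07% also lie in other genes on the same strand. POR, the reductase that supplies the P450 and SQLE, stood at 2.63 ± 0.227 FPKM without and 3.02 ± 0.179 FPKM with raised LACTB (limma, adjusted p = 0.158). CYB5A, the cytochrome b5 of the endoplasmic reticulum, was listed at 0 in all 6 libraries. None of its 9313 exon bases lie in other genes on the same strand. Whether the 0 reflects the cells or the annotation and counting was not tested.

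The arm before squalene fell as well. All 7 tested genes of the mevalonate list were lower, with a median log2 fold change of -1.04, between -1.79 for HMGCS1 and -0.51 for PMVK. A list of 14 genes that draw farnesyl or geranylgeranyl pyrophosphate into other products (protein prenylation, dolichol, ubiquinone, heme A and tRNA modification) divided into 2 that fell, 2 that rose and 10 that passed no threshold, with a median of -0.004. These counts are near the shares of all tested genes (17.2% lower, 14.8% higher) and are no result about the list. The 2 that fell were COQ2 and PDSS2 of ubiquinone synthesis and the 2 that rose were DHDDS and SRD5A3 of dolichol synthesis, named after their values were seen; all 4 calls were lost without a minimum level (limma, adjusted p = 0.103, 0.113, 0.0657 and 0.108), and 0 to 1 in each direction were called when any 1 library was left out. The difference between the lists themselves was not tested.

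**Figure D5:**
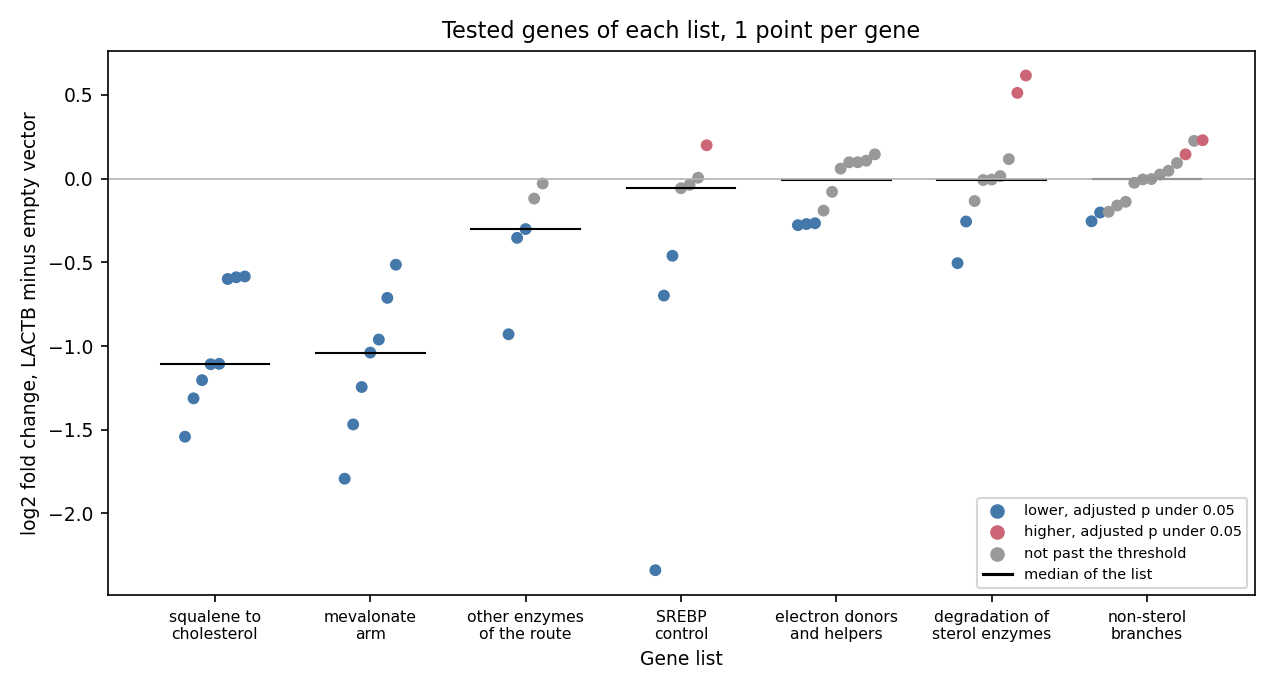
log2 fold change (LACTB minus empty vector) of each tested gene in 7 lists, 1 point per gene, coloured by its call, with the median of the list as a line. The squalene to cholesterol and mevalonate genes lie at or below -0.51, whereas the genes of the other products of farnesyl pyrophosphate lie between -0.25 and 0.23.

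Among 7 genes that control SREBP processing, 3 fell, 1 rose and 3 passed no threshold, where 17.2% of all tested genes fell and 14.8% rose. SREBF2 fell 1.66-fold and SREBF1, which encodes the SREBP form tied more to fatty acid synthesis, 1.46-fold, to 16.8 ± 0.734 and 5.26 ± 0.103 FPKM. INSIG1, itself an SREBP target, fell 6.58-fold to 2.65 ± 0.272 FPKM, the lowest log2 fold change of all tested genes (-2.34), whereas its relative INSIG2 stood at 7.39 ± 0.581 and 7.05 ± 0.302 FPKM (limma, adjusted p = 0.525). The escort protein gene SCAP stood at 11.1 ± 1.158 and 10.7 ± 0.517 FPKM and the protease gene MBTPS1 at 13.1 ± 0.365 and 13.1 ± 0.0806 FPKM. MBTPS2, the second protease, rose 1.18-fold to 5.46 ± 0.160 FPKM (limma, adjusted p = 0.0181), a call that ended when empty vector replicate 1, LACTB replicate 1 or LACTB replicate 2 was left out (limma, adjusted p = 0.0565, 0.0542 and 0.0679).

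Sterol enzymes are also controlled by degradation: the ubiquitin ligase MARCH6 (now MARCHF6) is known to act on SQLE, and RNF145 and RNF139 on the SREBP system. Of 9 genes of this list, 2 fell, 2 rose and 5 passed no threshold (median log2 fold change -0.005). With 17.2% of all tested genes lower and 14.8% higher, these counts are near the background and are no result about the list; the called genes are given singly. RNF145 fell 1.43-fold to 33.9 ± 0.577 FPKM and the ATPase gene VCP 1.20-fold to 82.0 ± 0.619 FPKM. SYVN1, the ligase HRD1, rose 1.51-fold to 7.21 ± 0.455 FPKM and UBXN8, an adaptor of VCP, 1.77-fold to 3.90 ± 0.328 FPKM. MARCH6 stood at 12.8 ± 0.338 and 12.7 ± 0.597 FPKM (limma, adjusted p = 0.913).

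Likeness to the members was measured as the root mean square difference between a gene's centred log2(FPKM + 1) values and the mean centred profile of the 9 members over the 6 libraries. The 5 nearest genes outside the members were CCBE1 (0.028), CYR61 (0.030), TRHDE (0.032), DGKD (0.038) and SPARC (0.039). All have log2 fold changes between -0.93 and -0.88, near the mean of the members. None of the 5 is a gene of the lists above. With 2 groups that lie apart, this measure mainly ranks genes by the size of their group difference.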

How the data were processed

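The authors deposited 1 table per library with FPKM values for 58735 genes. Per the submitters' processing notes, the build was GRCh38 (hg38), and the tools named, without a role, were DESeq2 1.16.1, HISAT2 2.0.5 and featureCounts 1.5.0-p3. For annotation release, strand use and the treatment of shared or multi-mapping reads, no setting is stated in the sources used here. All gene IDs matched GENCODE 29, used for coordinates and exon lengths. FPKM times exon length gave whole reads for 100% of values above 0 (tolerance 0.1 reads), from which reads were recovered; 28106 genes were 0 throughout. MARCH6, whose symbol is altered in the files, was found by its ID.

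limma 3.58.1 (R 4.3.3; lmFit, eBayes with trend) compared LACTB with empty vector on log2(FPKM + 1) for genes whose mean over all libraries reached 1 FPKM. Named were all members, called genes of the 4 lists nearest to them, LACTB and the 5 nearest profiles; other names are given as such or as context. The members and lists were chosen with earlier results of these data known; 4 genes of the lists are not reported here and are left out of the list counts. Replicate pairs differed by more than sampling noise (chi-square of 1.97 to 11.2 per degree of freedom), so each library counted once. The pairs with empty vector replicate 3 differed most (10.8 and 11.2), against 1.97 to 4.48 for the other pairs. The fit was tested on simulated data with known changes and the same spread between replicates set for every gene. It called 46% of 1.25-fold, 88% of 1.5-fold, 96% of 2-fold and 100% of 4-fold changes in the right direction. Small changes can thus be missed, and a gene that passed no threshold is not shown to be unchanged. Promoter windows came from a table of RefSeq starts (GRCh38.p14); 7 members were matched in it, and windows of FDFT1 and SQLE were not analysed here. Alternatives changed the pseudocount, filter, scaling, variance model, block or libraries.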

Additional observations from a re-analysis of the deposited data

How the results depend on the processing

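All 8 tested members stayed lower and past the threshold in each of 16 alternatives (pseudocount 0.1, no filter, a filter at 5 FPKM, median-of-ratios or quantile scaling, TPM, no trend, robust, voom on recovered reads, a replicate block and each library left out). Their highest adjusted p was 0.0467, for NSDHL without a filter. CYP51A1 could be tested only without a filter, as TPM and with all its reads divided by its unshared exon bases, the last chosen after seeing the data. Its shift against the other members reversed to 0.62 with a pseudocount of 1, which compresses low values. Counts over all genes (2038 lower, 1758 higher) turned to more higher than lower as TPM (1295 lower, 1615 higher, of 16070 tested) and with voom (1952 lower, 2346 higher). They also moved with the replicate block (1324 lower, 1155 higher). A filter at 5 FPKM gave 1605 lower and 1155 higher, but of only 6980 tested genes. Leaving out a library gave 1388 to 1800 lower and 1115 to 1505 higher. Same-numbered libraries did not deviate together (r of -0.126, 0.019 and -0.044), and the main fit did not pair them. Such values cannot show whether they were cultured or processed together, which the labels do not state. Genes of non-sterol branches called lower numbered 0 without a filter, as TPM or with the block, 1 without trend or with voom, and 0 to 1 with a library left out; those called higher numbered 0 without a filter or with the block and 0 to 1 with a library left out. For SREBP control, 0 were higher with the block and 0 to 1 with a library left out. For degradation, 1 was higher with a filter at 5 FPKM. At these depths 3 reads in 2 kb of exon were worth 0.0827 to 0.0872 FPKM.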
